A study of Mus musculus with 93 samples.

Results

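Acat1, Bdh1 and Slc16a1, genes of ketone body synthesis and export, were followed through 93 mouse livers, 1 array per mouse. They were taken by gene symbol: all probesets that the platform annotation gives to these 3 genes alone, which makes 6 of the 11412 probesets measured. All 6 belonged to the 10349 probesets that varied enough to be tested. Acat1 (Entrez 110446) has 3 probesets, called here the brightest, the middle and the dimmest by their mean log2 signals of 11.25, 11.11 and 8.55. Bdh1 (Entrez 71911) has 2, a brighter (10.48) and a dimmer (8.47), and Slc16a1 (Entrez 20501) has 1 (8.92). Where a gene is given by a single value without more, its brightest probeset is meant.

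All mice were male and had been fasted for 4 hours, then gavaged, and their livers were taken 6 hours later. The mutants were PPARα −/− mice of strain 129S4/SvJae, and the WT mice were 129S1/SvImJ, so that genotype and substrain cannot be told apart. In the first run, PPARα −/− mice received WY14643 (n = 5), fenofibrate (n = 5), the triglyceride of oleic acid (C18:1, n = 5), of eicosapentaenoic acid (C20:5, n = 4) or of docosahexaenoic acid (C22:6, n = 5), against 5 vehicle controls, and WT mice received WY14643 (n = 4), fenofibrate, C18:1, C20:5 or C22:6 (n = 5 each), against 3 controls. In the later run, PPARα −/− mice received the triglyceride of capric acid (C10:0), linoleic acid (C18:2) or linolenic acid (C18:3), with 5 mice each against 4 controls, and WT mice received C10:0 (n = 5), C18:2 (n = 4) or C18:3 (n = 5) against 4 controls. The triglycerides were given as 400 µl of the pure oil, each built from a single fatty acid. The synthetic PPARα ligands WY14643 and fenofibrate were given as 4 mg in 0.5% carboxymethyl cellulose, so their dose differs from that of the oils. By the paper, controls received 400 µl of 0.5% carboxymethyl cellulose alone, so each oil was set against mice gavaged without fat. Ages on the labels are 12 to 20 weeks in the WY14643 and control groups of the first run and 8 to 24 weeks elsewhere. Of 3 Ppara probesets, 1 kept the genotypes apart (up to 7.93 on the log2 scale in PPARα −/− livers and from 8.10 upward in WT livers), while the others overlapped. The 6 hepatocyte markers had mean log2 signals between 12.06 and 14.15, and median array signal (linear scale) was 136 to 145 in the first run and 154 to 168 in the later run.

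In the fasting liver, acetyl-CoA from fatty acid oxidation is turned into ketone bodies that other organs burn. Acat1, a mitochondrial thiolase, joins acetyl-CoA into acetoacetyl-CoA and also closes the breakdown of isoleucine. Further steps give acetoacetate, Bdh1 reduces it to β-hydroxybutyrate, and the transporter MCT1, the product of Slc16a1, carries both through the plasma membrane together with a proton. PPARα is the nuclear receptor that fatty acids and fibrates bind and that turns on genes of fat burning in fasted liver.

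The members did not behave alike. Slc16a1 rose about 4-fold with WY14643 and 2.49-fold with fenofibrate in WT livers and had no called change in PPARα −/− livers. Acat1 rose by 0.39 to 0.65 on the log2 scale with the same ligands in WT livers where it was called, and its level was lower in PPARα −/− than in WT livers after every one of the 8 treatments. In the controls of both runs all 6 Acat1 values were lower as well, 3 of them called. Bdh1 had no called change in WT livers. In PPARα −/− livers it was called lower with C10:0 (both probesets) and C18:3 (the brighter only), but these 3 calls were lost with only the compared groups in the fit. The Bdh1 response to these oils did not differ between the genotypes by the call. A change was called at a Benjamini-Hochberg adjusted p under 0.05 over all 10349 probesets in limma's moderated test, each treatment against the controls of its run and genotype, and each change is a difference of mean log2 signals.

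**Figure D1:**
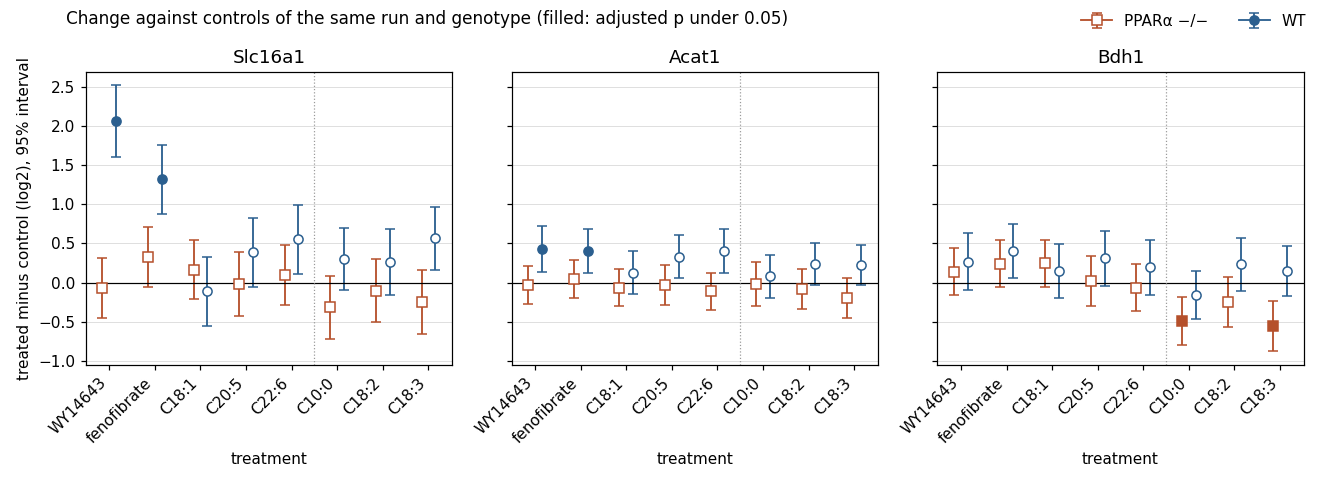
Change of Slc16a1, Acat1 and Bdh1 (the brightest probeset of each) with each of 8 treatments against controls of the same run and genotype, on the log2 scale with 95% intervals; squares are PPARα −/− livers, circles WT livers, filled symbols have an adjusted p under 0.05, and the dotted line parts the first run (left) from the later run. Filled circles stand only at WY14643 and fenofibrate, for Slc16a1 (2.06 and 1.32) and Acat1 (0.43 and 0.40), and filled squares only for Bdh1 at C10:0 and C18:3 (−0.49 and −0.56).

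With WY14643 in WT livers, 4 of the 6 member probesets were called, all higher, where 26.7% of all probesets were called and 12.5% were called higher. With fenofibrate 3 of 6 were called, all higher, against 13.5% of all probesets, 7.39% of them called higher. None of the 6 was called in WT livers with C18:1, C20:5, C22:6, C10:0, C18:2 or C18:3, where 0%, 0.56%, 5.77%, 1.59%, 0.464% and 3.41% of all probesets were called. At the study's threshold, an unadjusted p under 0.01, 14 of the 48 WT values passed, where 24.9% of all probesets passed with WY14643, 15.3% with fenofibrate, 2.29% with C18:1, 3.26% with C20:5, 9.05% with C22:6, 5.65% with C10:0, 3.87% with C18:2 and 6.97% with C18:3. An unadjusted p under 0.05 was reached by 4 of 8 Slc16a1, 16 of 24 Acat1 and 1 of 16 Bdh1 values, where 17% of all values over the same 8 comparisons reached it. The treatments of the first run share 1 set of controls and those of the later run another, so their values are not independent of each other.

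Acat1 stands at the start of the pathway, and its level rose with both ligands in WT livers. With WY14643 the log2 signal of the brightest probeset was 11.70, 11.71, 11.67 and 11.74 in the treated WT livers, against 11.32, 11.17 and 11.34 in their controls. The treated and control livers did not overlap, and the rise was 0.43 (SE 0.15, adjusted p = 0.0195, 1.35-fold). Against the 3 WT controls of the first run a lack of overlap comes easily. How often it occurs over all probesets in WT treatments is not given here, so it is not support of its own. The dimmest probeset rose by 0.65 (SE 0.16, adjusted p = 0.00117) and the middle by 0.43 (SE 0.13, adjusted p = 0.0112). With fenofibrate the brightest probeset stood at 11.63, 11.75, 11.63, 11.64 and 11.75 in WT livers, again above every control. Its rise was 0.40 (SE 0.14, adjusted p = 0.0396), that of the middle probeset was 0.39 (SE 0.13, adjusted p = 0.0289), and the dimmest differed by 0.42 (adjusted p = 0.0546), just outside the call. Leaving out WT control replicate 2 took the brightest probeset with WY14643 to an adjusted p of 0.087. The fenofibrate calls were lost without any one of the 3 WT controls, and also without fenofibrate replicate 2 or 5 for the brightest and replicate 3 for the middle probeset, with adjusted p up to 0.159 and 0.104.

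After C22:6 the Acat1 signal in WT livers was of the same size as after fenofibrate but was not called. The signal was 11.57, 11.60, 11.65, 11.70 and 11.89, above all 3 controls. The differences of the 3 probesets were 0.38 to 0.42 (adjusted p between 0.0652 and 0.101), and all 3 passed the study's unadjusted threshold. In a fit of the first run alone, the values of the brightest and the middle probeset were called (adjusted p = 0.00753 and 0.0384). Over all 8 treatments in WT livers the 24 Acat1 values lay between 0.07 and 0.65, all above 0.

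In PPARα −/− livers no Acat1 value was called in any treatment by limma, and 0 of the 24 had an unadjusted p under 0.05, which 15.6% of the values of all probesets had in these 8 comparisons. They ranged from −0.25 to 0.20. With WY14643 the signal was 10.76, 10.90, 10.82, 10.84 and 11.08 in PPARα −/− livers, against 10.93, 10.79, 11.10, 10.83 and 10.90 in their controls. These sets overlapped fully, and the difference was −0.03 with a 95% interval from −0.27 to 0.21.

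**Figure D2:**
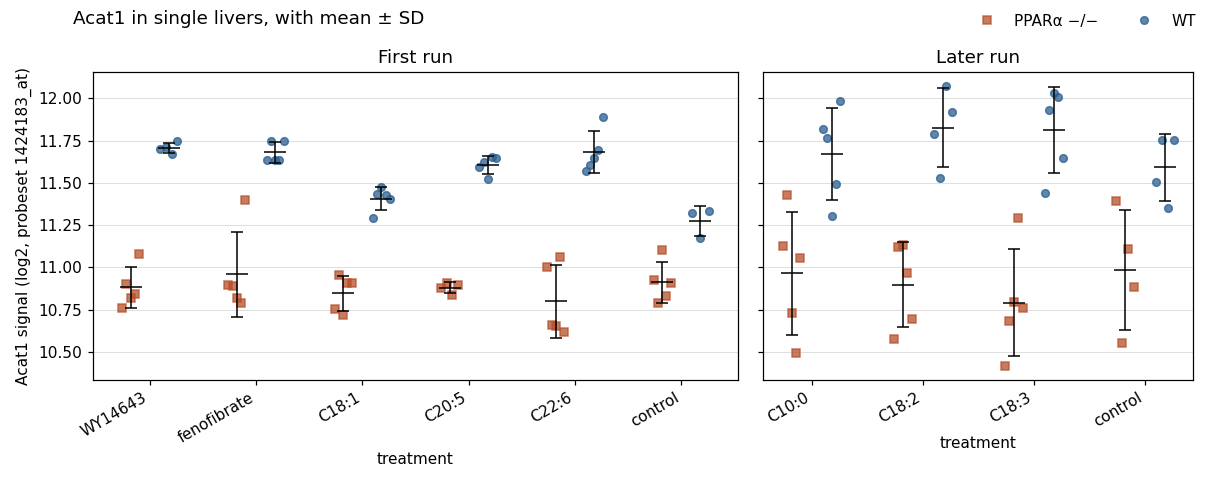
Acat1 signal (brightest probeset, log2) in each of 93 livers by treatment and run; squares are PPARα −/− and circles WT livers, and bars give the mean ± SD. In each treatment but C10:0 and the later controls every PPARα −/− liver lies below every WT liver, and WT livers given WY14643 (11.67 to 11.74) lie above their controls (11.17 to 11.34).

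The distance between the genotypes was the most regular feature of Acat1. After treatment all 24 Acat1 values, 3 probesets in 8 treatments, were lower in PPARα −/− than in WT livers and all 24 were called, in comparisons that were added after the treatment results were known. The share of all probesets called lower was 19.6% after WY14643, 17% after fenofibrate, 7.85% after C18:1, 8% after C20:5, 18% after C22:6, 8.98% after C10:0, 9.67% after C18:2 and 13.7% after C18:3. The smallest difference was −0.56 after C18:1 (brightest probeset, adjusted p = 0.000401) and the largest −1.21 after WY14643 (dimmest probeset, adjusted p = 5.4e-11). After C18:3 the 3 probesets were lower by between 1.02 and 1.15 on the log2 scale, to between 0.451 and 0.492 of the WT level. For the brightest probeset, C18:3 livers held 10.42, 10.68, 10.80, 11.29 and 10.76 in PPARα −/− mice, against 11.44, 11.93, 12.03, 12.00 and 11.65 in WT mice, and did not overlap. In 22 of the 24 comparisons no PPARα −/− liver reached a WT liver. The share of all probesets that lay wholly lower was 18% after WY14643, 11.9% after fenofibrate, 7.02% after C18:1, 9.24% after C20:5, 9.47% after C22:6, 7.42% after C10:0, 10% after C18:2 and 10% after C18:3.

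In untreated livers fewer Acat1 probesets were called. In the first run 1 of 6 member probesets was called, lower in PPARα −/− livers, against 8.93% of all probesets (4.91% called lower), and in the later run 2 of 6, both lower, against 7.43% (4.21% called lower). All 3 were Acat1 probesets. All 6 Acat1 values of these controls lay below 0, and all 6 had an unadjusted p under 0.05 by limma. Of the values of all probesets 20.9% had such a p. In the first run the middle probeset lay between 10.69 and 11.18 in the 5 PPARα −/− controls, against 11.21, 11.26 and 11.33 in WT controls, a difference of −0.38 (SE 0.13, adjusted p = 0.0442). The call was lost, with adjusted p up to 0.144, without any one of the WT controls or without PPARα −/− control replicate 1, 2 or 4. The dimmest and the brightest probeset differed by −0.44 and −0.37 there (adjusted p = 0.0556 and 0.0867). In the later run the brightest probeset held 11.39, 10.55, 11.11 and 10.88 in PPARα −/− controls, against 11.51, 11.75, 11.35 and 11.76 in WT controls, which overlap, and the difference was −0.61 (SE 0.13, adjusted p = 0.000966). The difference of the middle probeset was −0.64 (adjusted p = 0.000118), and that of the dimmest −0.39 (adjusted p = 0.104). With only the compared groups in the fit, the middle probeset of the first run and the brightest of the later run were not called (adjusted p = 0.193 and 0.184).

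Cell type markers were compared between the genotypes in the same livers. Of 8 markers of Kupffer cells and macrophages, the resident and recruited phagocytes of the liver, limma called none higher in PPARα −/− controls in either run (medians 0.43 and 0.65), but 4 after WY14643, 5 after fenofibrate, 4 after C18:1, 2 after C20:5 and 8 after C22:6, and 0, 1 and 1 after C10:0, C18:2 and C18:3. Of all 6234 genes 4.36% and 3.63% were called higher in the controls of the first and the later run, 31.2% after WY14643, 23.1% after fenofibrate, 8.53% after C18:1, 7.91% after C20:5, 19.4% after C22:6, 6.27% after C10:0, 6.88% after C18:2 and 16.1% after C18:3. After C22:6 the summed linear signal of these markers was 1898 to 3769 in PPARα −/− livers and 713 to 974 in WT livers. This sum also lay wholly higher in PPARα −/− livers after C18:1 and C18:2, and overlapped after the other treatments. After C18:3 it was 1363 to 2281 in PPARα −/− livers and 1119 to 2249 in WT livers. Marco, a macrophage receptor, and Col1a1, a collagen of activated stellate cells, lay at the bottom of the scale, with mean log2 signals of 2.22 and 2.42. Of 5 stellate cell markers 4 were called higher after WY14643 (median 0.72). Their summed signal was 1647 to 2895 in PPARα −/− and 1188 to 1460 in WT livers after C22:6. After C18:3 the genotypes overlapped (1700 to 2353 and 1455 to 1817). They lay apart in this sum after WY14643, C18:1 and C18:2 as well. The sum of 5 endothelial markers was 1318 to 1516 in PPARα −/− and 1024 to 1168 in WT livers after C18:3. In the same order it was 948 to 1181 and 591 to 764 after C22:6. In the first controls it was 830 to 1206 and 653 to 815. The genotypes also lay apart after WY14643, but overlapped in later controls and the other treatments. Alas2, the only red blood cell marker measured, lay wholly higher in PPARα −/− livers after fenofibrate (532 to 662, against 246 to 441). The same held after C18:1, C20:5, C10:0 and C18:2, while Alas2 overlapped in both sets of controls and after WY14643, C22:6 and C18:3. The hepatocyte list had a median between −0.01 and 0.07 in the 8 treatments, with at most 1 of 6 genes called. The part of these cells in the Acat1 distance was not tested, and in a piece of whole liver fewer cells of a type and less RNA per cell cannot be told apart.

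The response to treatment was compared between the genotypes with the interaction, the change in WT minus the change in PPARα −/− livers. With WY14643, 3 of 6 member probesets were called, all positive, where 16.5% of all probesets were called (8.14% positive), and with fenofibrate 1 of 6, against 7.03% (4.25% positive). For Acat1 with WY14643 the changes of the dimmest probeset were −0.11 in PPARα −/− and 0.65 in WT livers, a difference of 0.77 (SE 0.21, adjusted p = 0.00603). That of the middle probeset was 0.59 (adjusted p = 0.0112), and that of the brightest 0.46 (adjusted p = 0.086), not called. No member was called in the other 6 treatments, in which 0% (C18:1), 0.029% (C20:5), 2.94% (C22:6), 0.0193% (C10:0), 0% (C18:2) and 1.05% (C18:3) of all probesets were called. Over the 8 treatments, 13 of 24 Acat1, 4 of 8 Slc16a1 and 3 of 16 Bdh1 values had an unadjusted p under 0.05, as did 12.9% of the values of all probesets. The study's unadjusted threshold was passed by 10 of the 48, against 17.3% of all probesets with WY14643, 10.1% with fenofibrate, 1.71% with C18:1, 1.07% with C20:5, 7.59% with C22:6, 1.55% with C10:0, 1.13% with C18:2 and 5.15% with C18:3. The 24 Acat1 differences all lay above 0, from 0.03 to 0.77.

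Bdh1, the dehydrogenase that makes β-hydroxybutyrate, was not called in any treatment of WT livers by limma. Its 16 values ranged from −0.35 to 0.49, and 1 had an unadjusted p under 0.05, the brighter probeset with fenofibrate (adjusted p = 0.121). Its signal was 10.45, 10.68, 10.77, 10.41 and 10.73 in WT livers, against 10.18, 10.08 and 10.36 in controls. All treated livers lay above all controls here, at 0.40 with a 95% interval from 0.06 to 0.75, and the comparison neither passes the call nor shows that Bdh1 stayed level.

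In PPARα −/− livers Bdh1 was lower with C10:0 and C18:3. Of the 6 member probesets 2 were called with C10:0 and 1 with C18:3, all lower, where 6.92% and 10.4% of all probesets were called (3.43% and 4.28% lower). No member was called with WY14643, fenofibrate, C18:1, C20:5, C22:6 or C18:2, against 0%, 0.0773%, 1.13%, 0.058%, 14.3% and 0.358% of all probesets. With C10:0 the brighter probeset was 10.23, 10.11, 10.30, 10.06 and 10.06, against 10.78, 10.32, 10.53 and 10.94 in the controls, and the groups came close but did not overlap. It fell by 0.49 (SE 0.15, adjusted p = 0.0386), and the dimmer probeset fell by 0.75 (SE 0.23, adjusted p = 0.0333). With C18:3 the brighter probeset was 10.07, 9.88, 10.31, 10.41 and 9.75 in treated PPARα −/− livers, where 1 liver reached the range of the controls, and fell by 0.56 (SE 0.16, adjusted p = 0.0167). The value of the dimmer probeset was −0.66 (adjusted p = 0.0514).

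The 3 Bdh1 calls depended on single livers and on the fit. When only the compared groups entered the fit, all 3 were lost, with adjusted p of 0.101 to 0.121. With C10:0 the brighter probeset lost its call without control replicate 1, 3 or 4 or C10:0 replicate 1, 2, 4 or 5 (adjusted p up to 0.127), and the dimmer without control replicate 1 or 4 or C10:0 replicate 1, 2 or 5 (up to 0.11). With C18:3 the brighter probeset lost it without control replicate 4 or C18:3 replicate 2 or 5 (up to 0.0881). Median centring of the arrays, array weights and quantile normalization each left the brighter probeset with C10:0 uncalled (adjusted p = 0.0554, 0.0515 and 0.0605). Markers of stellate cells, which store vitamin A and lay down collagen, had a median of −0.66 with C10:0, with 1 of 5 called lower, and −0.63 with C18:3, with none called. Their summed signal was 1544 to 2023 with C10:0 and 1700 to 2353 with C18:3, against 1637 to 4042 in the PPARα −/− controls. The linear signal of the adipocyte marker Fabp4 was 123 to 1397 with C10:0 and 143 to 221 with C18:3, against 78.4 to 421 in these controls. The 6 hepatocyte markers had medians of −0.01 and 0.00. The part of stellate cells or adipocytes in the Bdh1 values was not tested.

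**Figure D3:**
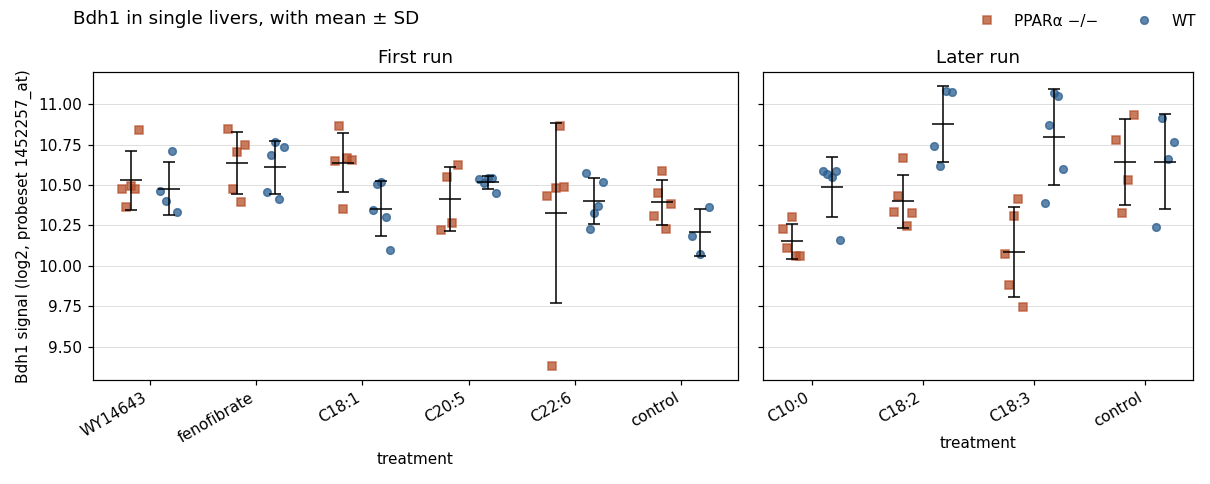
Bdh1 signal (brighter probeset, log2) in each of 93 livers by treatment and run; squares are PPARα −/− and circles WT livers, and bars give the mean ± SD. In the later run PPARα −/− livers given C10:0 (10.06 to 10.30) lie below their controls (10.32 to 10.94), and in the first run 1 PPARα −/− liver given C22:6 lies apart at 9.38.

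Between the genotypes, Bdh1 did not differ by the call in untreated livers. The 4 values were 0.18 and 0.27 in the first run and −0.00 and −0.11 in the later run, none with an unadjusted p under 0.05, which 20.9% of the values of all probesets had. After C18:3 both probesets were lower in PPARα −/− livers, with differences of −0.71 for the brighter (10.08 ± 0.28 in PPARα −/− and 10.80 ± 0.30 in WT livers, SD, n = 5 each, adjusted p = 0.000142) and −0.82 for the dimmer (adjusted p = 0.00239). After C18:2 the brighter probeset differed by −0.48 (adjusted p = 0.0294), and this call was lost without WT C18:2 replicate 3 or 4 or PPARα −/− C18:2 replicate 1, 4 or 5 (adjusted p up to 0.121). Of all probesets 13.7% were called lower after C18:3 and 9.67% after C18:2. The interaction did not pass for Bdh1 in any treatment by limma. With C18:3 it was 0.71 for both probesets (adjusted p = 0.101 and 0.307). With C10:0 it was 0.34 for the brighter and 0.40 for the dimmer probeset (adjusted p = 0.904 and 0.958), and the WT changes there were −0.16 and −0.35.

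Slc16a1, the export transporter, had the widest response of the 3 genes. Its gene lies on chromosome 3, and the 250 bases before its start (RefSeq, GRCm38.p6, chr3:104638414-104638663, plus strand) are shown because this is the member that rose most with the PPARα ligands. Capitals mark TATAA, searched on the gene's strand after the sequence had been seen, which begins 26 bases before the start. TATAA occurs in 17.5% of 32851 promoters, each searched from 250 bases before to 50 bases after its start.

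Slc16a1: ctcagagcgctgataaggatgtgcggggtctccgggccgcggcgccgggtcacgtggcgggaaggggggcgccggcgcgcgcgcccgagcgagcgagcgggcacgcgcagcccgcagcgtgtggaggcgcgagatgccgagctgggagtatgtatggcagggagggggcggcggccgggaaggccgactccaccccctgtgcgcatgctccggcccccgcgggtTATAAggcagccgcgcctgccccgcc

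PPARα binds with RXR to direct repeats of a hexamer with 1 base between them. In the window from 250 bases before to 50 bases after the start, neither strand of the Slc16a1 promoter held AGGTCA, which occurs in 16.3% of all promoters, and so no pair of it either, which occurs with 1 base between in 0.0396%. The 2 Bdh1 promoters held no AGGTCA either. These are letters in a short window and say nothing of where the receptor binds.

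With WY14643 the Slc16a1 signal was 10.96, 10.71, 10.93 and 10.86 in WT livers, against 8.70, 9.23 and 8.48 in the controls. Every treated liver stood far above every control, and the rise was 2.06 (SE 0.23, adjusted p = 5.4e-11, 4.18-fold). With fenofibrate the signal was 10.19, 10.52, 10.60, 9.83 and 9.47 in WT livers, 2 of which stood clearly lower than the others. The rise was 1.32 (SE 0.22, adjusted p = 7.0e-06, 2.49-fold), with no overlap with the controls. With WY14643 the markers of other cells in WT livers were called in 0 of 8 Kupffer, 0 of 5 endothelial and 0 of 5 stellate genes by limma, whereas Fabp4, a fatty acid binding protein of adipocytes, rose by 1.86 (summed signal 160 to 284, against 39.7 to 69.8 in controls). Fabp4 was the only adipocyte marker measured, and the paper lists it among genes that WY14643 raised disproportionately. With fenofibrate its signal was 59.7 to 80.2 in WT livers. The part of adipocytes was not tested.

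The triglycerides left smaller differences. With C22:6 Slc16a1 was 9.57, 9.43, 8.95, 8.97 and 9.87 in WT livers, of which 2 lay within the range of the controls, and the difference was 0.56 (SE 0.22, adjusted p = 0.134). With C18:3 it was 8.81, 9.08, 9.50, 9.02 and 9.05, against 9.04, 8.43, 8.37 and 8.27 in the later controls, a difference of 0.56 (SE 0.20, adjusted p = 0.115). With C20:5, C18:1, C10:0 and C18:2 the differences were 0.39, −0.11, 0.30 and 0.26 (adjusted p between 0.524 and 0.965). Weighting arrays by their quality moved the C20:5 value to 0.72, that of C22:6 to 0.65 and that of C18:3 to 0.72, all called (adjusted p = 0.0221, 0.0246 and 0.00497).

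**Figure D4:**
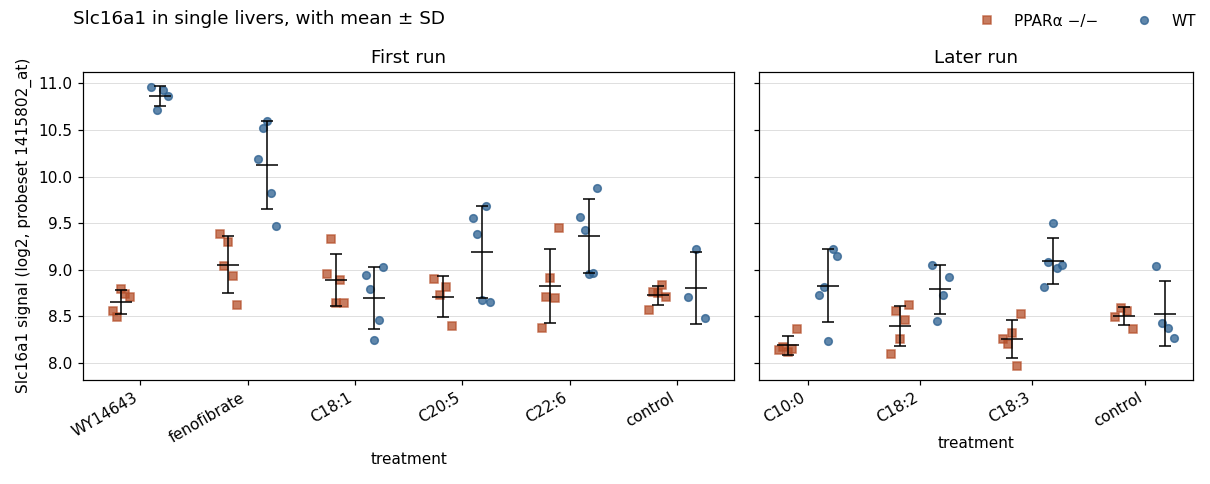
Slc16a1 signal (log2) in each of 93 livers by treatment and run; squares are PPARα −/− and circles WT livers, and bars give the mean ± SD. WT livers given WY14643 (10.71 to 10.96) and fenofibrate (9.47 to 10.60) lie above all PPARα −/− livers (7.97 to 9.45) and above their controls (8.48 to 9.23).

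In PPARα −/− livers Slc16a1 was not called in any of the 8 treatments by limma, and none had an unadjusted p under 0.05. With WY14643 it was 8.55, 8.49, 8.79, 8.74 and 8.71, against 8.57, 8.76, 8.76, 8.84 and 8.70 in the controls, a difference of −0.07 with a 95% interval from −0.45 to 0.31. With fenofibrate it was 9.39, 9.04, 9.30, 8.94 and 8.63, of which 4 lay above every control, and the difference was 0.33 with an interval from −0.05 to 0.71 (adjusted p = 0.756). With the oils the differences lay between −0.32 for C10:0 and 0.17 for C18:1.

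The genotypes differed in the Slc16a1 response to both ligands. The WY14643 difference, WT minus PPARα −/−, was 2.13 (SE 0.30, adjusted p = 1.6e-07), and the fenofibrate difference was 0.99 (SE 0.29, adjusted p = 0.0239). The fenofibrate call was lost with only the compared groups in the fit (adjusted p = 0.0863) and without WT control replicate 1 or 3, WT fenofibrate replicate 2 or 3, or PPARα −/− fenofibrate replicate 5 (adjusted p up to 0.118). With C18:3 the difference was 0.81 (adjusted p = 0.159).

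Untreated PPARα −/− and WT livers had like Slc16a1 signals, 8.73 ± 0.10 (SD, n = 5) in PPARα −/− and 8.80 ± 0.38 (n = 3) in WT controls of the first run, and 8.50 ± 0.10 and 8.53 ± 0.35 (n = 4 each) in PPARα −/− and WT controls of the later run. The differences were −0.08 and −0.03, with 95% intervals from −0.52 to 0.36 and from −0.45 to 0.40. After treatment Slc16a1 was lower in PPARα −/− livers with WY14643 (−2.21), fenofibrate (−1.06), C18:3 (−0.84), C10:0 (−0.64) and C22:6 (−0.53), 5 of 8 called. Of all probesets 19.6%, 17%, 13.7%, 8.98% and 18% were called lower in these comparisons, in the same order. After C18:1, C20:5 and C18:2, where Slc16a1 was not called, the shares were 7.85%, 8% and 9.67%. The C22:6 call (adjusted p = 0.023) was lost without WT C22:6 replicate 1 or 5 or PPARα −/− C22:6 replicate 1 or 2 (adjusted p up to 0.114), and that of C10:0 (adjusted p = 0.0121) without WT C10:0 replicate 4 (0.059).

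The treatments were then set against each other in 14 pairs, 7 in each genotype, of the same run and the same dose. In WT livers Slc16a1 was higher with WY14643 than with fenofibrate by 0.75 (SE 0.20, adjusted p = 0.035, with 1.88% of all probesets called in that pair), and no WY14643 liver overlapped a fenofibrate liver. It was higher with C22:6 than with C18:1, whose chain is shorter and has fewer double bonds, by 0.67 (SE 0.19, adjusted p = 0.0276, 4.29% called), although the livers overlapped. Neither call held with only the compared groups in the fit (adjusted p = 0.106 and 0.129). The first was lost without any of the WT WY14643 livers or without fenofibrate replicate 1, 4 or 5 (up to 0.131), the second without C18:1 replicate 3 or 4 or C22:6 replicate 1, 2 or 5 (up to 0.159).

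The remaining WT pairs were not called for any member, with 1.35% (C20:5 minus C18:1), 0.0387% (C22:6 minus C20:5), 0% (C18:3 minus C18:2), 0.00966% (C18:2 minus C10:0) and 0.0193% (C18:3 minus C10:0) of all probesets called. C22:6 and C20:5 differed in WT Slc16a1 by 0.17 (95% interval −0.21 to 0.55), C18:3 and C18:2, which differ by a further double bond, by 0.30 (−0.10 to 0.71), and C20:5 and C18:1 by 0.50 (0.12 to 0.88, adjusted p = 0.203). For Acat1 C22:6 minus C18:1 was 0.28 (0.04 to 0.52, adjusted p = 0.206), and WY14643 minus fenofibrate 0.03 (−0.23 to 0.28). For Bdh1 C18:2 minus C10:0 was 0.39 (0.08 to 0.70, adjusted p = 0.613). In PPARα −/− livers 0 of 42 values were called by limma, and 1 of 7 Slc16a1, 4 of 21 Acat1 and 3 of 14 Bdh1 values had an unadjusted p under 0.05, as did 11.2% of the values of all probesets in these 7 pairs. There 0.0387% of all probesets were called for WY14643 minus fenofibrate, 0.309% for C22:6 minus C18:1, 0.174% for C20:5 minus C18:1, 2.42% for C22:6 minus C20:5, 0% for C18:3 minus C18:2, 0.0193% for C18:2 minus C10:0 and 0.879% for C18:3 minus C10:0.

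Ordered by mean level, the 12 groups of the first run put WT WY14643 first for Slc16a1, at 10.87, then WT fenofibrate at 10.12 and WT C22:6 at 9.36, and these neighbours differed from each other by the call. From WT C22:6 down to PPARα −/− WY14643 at 8.66, no neighbours did. Neighbours were picked by these same means, which keeps each step small, so an uncalled step does not show that groups are alike. Within that stretch WT C22:6 lay above WT C18:1 by limma's call (0.67, adjusted p = 0.0276). For Acat1 the order followed genotype in both runs: every WT group stood above every PPARα −/− group, from 11.71 (WT WY14643) to 11.28 (WT control) and then from 10.96 (PPARα −/− fenofibrate) to 10.80 (PPARα −/− C22:6) in the first run. For Bdh1 no neighbouring groups differed by the call, though PPARα −/− and WT livers did after C18:3 (−0.71, adjusted p = 0.000142 by limma). Its means ran from 10.64 to 10.21 in the first run and from 10.88 (WT C18:2) to 10.08 (PPARα −/− C18:3) in the later run.

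The probesets of a gene largely moved together. Over 48 PPARα −/− and 45 WT arrays, each minus the mean of its run within the genotype, the Bdh1 probesets correlated at r = 0.86 and 0.84, and the brightest and middle Acat1 probesets at 0.84 and 0.92, whereas the brightest and the dimmest correlated at 0.39 and 0.49. Acat1 and Slc16a1 correlated at −0.15 in PPARα −/− and 0.49 in WT arrays. These values describe arrays that share treatments and controls. Over the 45 WT arrays the genes of 6234 with the pattern most like Slc16a1 were Chkb, a choline kinase (r = 0.904), Plin2, a lipid droplet coat protein (0.904), and Fas, a death receptor (0.902). For Acat1 they were Dio1, a deiodinase of thyroid hormone (0.823), Entpd5, a nucleotidase (0.777), and Etfdh, which passes electrons from fatty acid oxidation to ubiquinone (0.758), and for Bdh1 they were Rdh14, a retinol dehydrogenase (0.716), Pbld1 (0.653) and Gclc, of glutathione synthesis (0.646).

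Of 12 genes listed for the ketone body pathway, 8 were tested, and the others are not analysed here. With WY14643 in WT livers 4 of the 8 rose, where 12.1% of 6234 genes rose, and the list's median was 0.35, against −0.08 over all genes. Beside Slc16a1 and Acat1 these were Aacs, which returns acetoacetate to CoA in the cytosol (1.75, adjusted p = 0.0237), and Slc16a7, the transporter MCT2 (0.73, adjusted p = 0.0268). With fenofibrate 2 of 8 rose, Slc16a1 and Acat1 (7.12% of genes rose; list median 0.40, −0.05 over all genes), and no member was called with an oil in WT livers. In PPARα −/− livers with C22:6, Bdh2, a cytosolic relative of Bdh1, fell by 0.85 (adjusted p = 0.00544) and Sirt3, a mitochondrial deacetylase, by 0.31 (adjusted p = 0.0252), where 9.21% of genes fell. In the same comparison 4 of the 8 Kupffer cell and macrophage markers rose (median 0.91, lowest 0.81, where 6.37% of genes rose), and their part in these falls was not tested. Oxct1, the enzyme by which other organs take up ketone bodies into metabolism, was low in liver but higher in PPARα −/− controls, at 5.38 ± 0.35 (SD, n = 5), against 4.24 ± 0.47 (n = 3) in WT controls of the first run, by 1.13 (adjusted p = 0.0071), and by 1.01 in the later run (adjusted p = 0.0162). Bdh2 was higher in PPARα −/− controls too, by 0.94 and 0.86 (adjusted p = 0.00701 and 0.0128).

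Among monocarboxylate transporters and their partners, 6 of 16 listed genes were tested. With WY14643 in WT livers 3 rose and 1 fell, where 12.1% of all genes rose and 16.4% fell. Slc16a5 rose by 3.05 (adjusted p = 8.1e-06), more than Slc16a1, and also with C22:6 (2.49), C18:3 (1.99) and C10:0 (1.95), and in PPARα −/− livers with C18:3 (1.45, adjusted p = 0.0381). Slc16a10, a carrier of aromatic amino acids, fell by 1.71 with WY14643 (adjusted p = 2.5e-07), to 0.354 of the control level with fenofibrate, and by 0.75 with C18:3 (adjusted p = 0.0472). Of the 6, Slc16a1 was the only one that rose with fenofibrate by the call.

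The thiolases, the enzyme family of Acat1, had 6 of 8 members tested. In WT livers 5 of 6 rose with WY14643 (list median 0.65) and 4 with fenofibrate (0.56), where 12.1% and 7.12% of all genes rose. With WY14643 the rises were 1.13 for Acaa1a and 0.87 for Acaa1b, both of peroxisomes, and 0.90 for Hadhb, of the mitochondrial trifunctional protein, against 0.43 for Acat1. In PPARα −/− controls 3 of 6 were lower in the first run and 5 of 6 in the later run, where 5.36% and 4.27% of all genes were lower.

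Of 22 listed genes of branched-chain amino acid breakdown 13 were tested, and in WT livers 2 rose and 2 fell with WY14643 (12.1% and 16.4% of all genes), with a median of −0.06. Bcat2, the first aminotransferase, fell by 1.51 with WY14643 (adjusted p = 0.000251) and by 1.04 with fenofibrate (adjusted p = 0.0171), and Acad8, of valine breakdown, fell by 0.49 with WY14643. Hsd17b10, the isoleucine step just before Acat1, rose by 0.46 with WY14643, 0.50 with C22:6, 0.44 with C10:0 and 0.62 with C18:3, and Hibch, of valine breakdown, rose by 0.36 with WY14643. In PPARα −/− livers with C22:6, 5 of the 13 fell and none rose, where 9.21% of all genes fell and 6.37% rose. All 13 values lay below 0 there, from −0.56 to −0.12, with a median of −0.36 against −0.03 over all genes. The genes that fell, named here after their values were seen, were Hibch (−0.39), Ivd (−0.39), Mccc1 (−0.38) and Pcca (−0.36), enzymes of valine, leucine and propionate breakdown, and Ppm1k (−0.49), the phosphatase that activates the branched-chain ketoacid dehydrogenase. The macrophage markers named above rose in the same livers, and their part in these values was not tested.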

How the data were processed

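Liver RNA of single mice was hybridised to Affymetrix mouse arrays. The deposited values are probeset intensity values on the linear scale that the authors made by GC-RMA (GCRMA 2.20, from the submitters' processing notes) and normalized. Array medians of the first and the later run did not overlap, so whether both runs were normalized together cannot be told here. The authors had removed probesets of low variation. The log2 of each intensity was taken. Of 11463 probesets, 51 control probesets were left out, and 10349 with an interquartile range of at least 0.25 over 83 arrays were tested with limma 3.58.1 in R 4.3.3, with 1 mean per group. Comparisons with C10:0 used a fit of all 93 arrays, the others one of 83. Symbols came from the platform annotation (10279 probesets with 1 symbol, 406 with several, 727 with none). The number of arrays and the spread between livers limit the precision.

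The members and lists were chosen with earlier results of these data known. Named are all member probesets, all measured genes of the ketone body list, up to 4 genes with the largest changes called in WT livers of each other list, and the 3 genes most like each member. Of the 3 members, 2 matched the promoter table. Same-numbered arrays deviated together (every correlation over 0.1) in 1 of 16 comparisons, WY14643 in PPARα −/− livers, by the data alone; the replicate number as a block called no member there. The highest correlation between 2 arrays was 0.991. Fits were tested on simulated data.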

Additional observations from a re-analysis of the deposited data

Results flagged for a closer look

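In 9 of 114 sets of 4 or 5 livers a single liver lay apart from the others of its group by Dixon's criterion, which marks about 1 set in 20 by chance. For Acat1 these were PPARα −/− fenofibrate replicate 5 at 11.40 (brightest probeset, log2 signal), PPARα −/− WY14643 replicate 5 at 11.01 and WT fenofibrate replicate 3 at 11.79 (middle probeset), and PPARα −/− WY14643 replicate 5 at 8.03 and the PPARα −/− later control replicate 4 at 8.92 (dimmest probeset). For Bdh1 they were PPARα −/− WY14643 replicate 5 at 10.84 and WT C10:0 replicate 5 at 10.16 (brighter probeset), and PPARα −/− C22:6 replicate 2 at 6.74 (dimmer probeset). For Slc16a1 it was PPARα −/− C10:0 replicate 5 at 8.36.

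In 4 cases the response in WT minus that in PPARα −/− livers passed the test of the difference itself. These were Slc16a1 with WY14643 (2.13, adjusted p = 1.6e-07) and with fenofibrate (0.99, adjusted p = 0.0239), and Acat1 with WY14643 for the dimmest probeset (0.77, adjusted p = 0.00603) and the middle probeset (0.59, adjusted p = 0.0112).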

How the results depend on the processing

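No called member value changed direction in 12 other settings or when single arrays were left out. Member calls in WT treatments numbered 7, and 11 with array weights, 14 at an unadjusted p under 0.01 and 4 to 10 without single arrays. In PPARα −/− treatments they numbered 3, and 0 with only the compared groups in the fit, 0 with a minimum interquartile range of 0.5, where both Bdh1 probesets drop out, and 0 to 4 without single arrays. Genotype differences in response numbered 4, and 10 at an unadjusted p under 0.01 and 3 to 5 without single arrays. Between controls 3 were called, 1 with only the compared groups, 6 with array weights and 2 to 5 without single arrays. Between treatments 2 were called, 0 with only the compared groups, 1 with only the arrays of the run, 7 with array weights and 1 to 2 without single arrays. Neither labels nor paper say whether same-numbered mice share more than a number, and so few pairs per comparison cannot exclude it. With the replicate number as a block 1 of the 7 WT calls was left, Slc16a1 with WY14643, and 0 of the 3 PPARα −/− calls; Slc16a1 with fenofibrate was 1.63 (adjusted p = 0.0637). The cause of these shifts was not tested.

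Of 3168 values in these settings 30 changed sign, none of them called: 22 with array weights, 4 with median centring, 2 with quantile normalization and 2 with the replicate block. Those of treatments against controls and of PPARα −/− against WT livers for the brightest probeset of each gene were as follows. With array weights Acat1 was 0.011 with C20:5 and 0.078 with C10:0 in PPARα −/− livers, Slc16a1 −0.0090 and Bdh1 0.088 with C22:6, PPARα −/− minus WT was 0.094 and 0.14 for Slc16a1 in first and later controls, and 0.031 for Bdh1 after C22:6. Median centring gave 0.011 for Acat1 with C10:0 in PPARα −/− livers, and quantile normalization 0.013 for Bdh1, PPARα −/− minus WT, in later controls. Without single arrays, Slc16a1 ranged from −0.27 to 0.10 with C18:1 in WT livers. In PPARα −/− livers Acat1 ranged from −0.080 to 0.017 with WY14643, −0.063 to 0.095 with fenofibrate, −0.061 to 0.016 with C20:5, −0.16 to 0.12 with C10:0 and −0.23 to 0.050 with C18:2, Slc16a1 from −0.080 to 0.087 with C20:5 and −0.053 to 0.21 with C22:6, and Bdh1 from −0.048 to 0.086 with C20:5 and −0.20 to 0.17 with C22:6. PPARα −/− minus WT ranged from −0.24 to 0.13 and −0.11 to 0.15 for Slc16a1 in first and later controls, and for Bdh1 from −0.14 to 0.10 in later controls, −0.028 to 0.13 after WY14643, −0.031 to 0.083 after fenofibrate and −0.21 to 0.16 after C22:6.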
